A study of Mus musculus with 24 samples.

Results

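The genes described here are the dual oxidases Duox1 and Duox2, their maturation factors Duoxa1 and Duoxa2, the NADPH oxidases Nox4 and Cybb, and Cyba, the small membrane subunit shared by the last pair. They were chosen by gene symbol because Duox1 and Duoxa1 are high in cells labelled FIP, so the level in FIP is part of the choice. For these genes FIP is therefore set against other subpopulations without a test. Sexes are compared by test within FIP, because the choice names no sex. All 7 genes were found among the 27179 genes of the table, and 6 of the 7 were among the 14517 genes tested, those that reached 10 in 3 or more libraries. Duoxa2 did not reach that level. The 24 bulk RNA sequencing libraries came from PDGFRb+ cells isolated by flow cytometry from white adipose tissue of C57BL/6 mice and formed 8 groups of 3. Gonadal tissue gave the groups F_APC and F_FIP from females and M_APC and M_FIP from males. Inguinal tissue gave F_DPP4_neg and F_DPP4_pos from females and M_DPP4_neg and M_DPP4_pos from males, named for absence or presence of DPP4, a surface peptidase. No treatment or engineered allele is named for any group. Age, the gates that separated FIP from APC, and whether the 3 libraries of a group came from separate animals are not given in the sources used here, and the p-values below therefore refer to library-to-library variation that could be purely technical.

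Values are normalised counts, that is reads per gene divided by a size factor of the library, and are compared between libraries. The whole reads behind them, recovered from the values, numbered 9152470 to 18221692 per library. Pdgfrb, the gene of the sort marker, was present in all 8 groups, with means from 1770.2 ± 35.4 (SD, n = 3) in F_FIP to 6152 ± 117 in M_APC. The 8 epithelial marker genes summed to between 4048 and 9737 normalised counts in F_DPP4_neg and to at most 378 in the libraries of the other 7 groups. Neutrophil markers (6 genes) summed to between 473 and 1713 in M_DPP4_neg, between 33.3 and 366 in F_DPP4_neg and at most 15.1 in the other 6 groups. Epithelial and neutrophil markers are named again beside results of these groups.

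NADPH oxidases are membrane enzymes that carry electrons from NADPH inside the cell to oxygen on the other side of the membrane. The DUOX proteins are calcium-regulated and release hydrogen peroxide outside the cell. They leave the endoplasmic reticulum only with a DUOXA maturation factor, and they are best known from thyroid and airway epithelium. NOX4 is regarded as constitutively active once it has formed a complex with the Cyba product. Cybb encodes the catalytic subunit of the phagocyte oxidase, which also uses the Cyba product and becomes active when cytosolic subunits and a Rac GTPase join it.

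The 4 Duox and Duoxa genes lie side by side on chromosome 2 (RefSeq, GRCm38.p6). Duox2 spans chr2:122279246-122298740 on the minus strand, Duoxa2 chr2:122298900-122302885 on the plus strand, Duoxa1 chr2:122303540-122313763 on the minus strand and Duox1 chr2:122313010-122347972 on the plus strand. Nox4 lies at chr7:87244430-87398710, Cyba at chr8:122424771-122432940 and Cybb at chrX:9435252-9487766. The main start of Duoxa1 lies at -1942 bases from that of Duox1, and the pair point away from each other. Because Duox1 and Duoxa1 moved together in the libraries and Nox4 shared their rise in DPP4_pos cells, the 250 bases upstream of these 3 starts are shown. They are chr2:122315422-122315671 (plus strand), chr2:122313731-122313980 (minus strand) and chr7:87246399-87246648 (plus strand) from RefSeq, written 5′ to 3′ along the gene, with matches to the GC box GGGCGG in capitals.
Duox1: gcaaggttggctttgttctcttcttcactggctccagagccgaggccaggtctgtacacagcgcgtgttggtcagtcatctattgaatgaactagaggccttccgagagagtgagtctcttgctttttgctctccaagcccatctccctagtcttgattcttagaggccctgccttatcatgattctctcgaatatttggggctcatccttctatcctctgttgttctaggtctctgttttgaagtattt
Duoxa1: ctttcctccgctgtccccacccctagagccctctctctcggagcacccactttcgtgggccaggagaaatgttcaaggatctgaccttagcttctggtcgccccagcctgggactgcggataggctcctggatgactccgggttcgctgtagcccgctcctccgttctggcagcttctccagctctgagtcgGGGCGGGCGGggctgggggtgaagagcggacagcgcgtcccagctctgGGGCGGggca
Nox4: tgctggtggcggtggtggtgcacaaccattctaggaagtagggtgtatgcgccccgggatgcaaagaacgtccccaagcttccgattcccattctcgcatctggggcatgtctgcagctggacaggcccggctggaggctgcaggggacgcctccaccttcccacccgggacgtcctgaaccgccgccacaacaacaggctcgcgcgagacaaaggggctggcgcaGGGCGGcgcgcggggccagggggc
Besides the GC box, both strands were searched for the TATA box (letters TATAAA), the CCAAT box, the AP-1 motif (letters TGANTCA) and the core of the antioxidant response element (letters TGACNNNGC). The Duoxa1 window held 3 GC boxes, beginning at -58, -54 and -10 relative to the start, of which the first pair overlap, and the Nox4 window held 1 at -24. Of 27025 promoters of this length, 32.9% held a GC box, 13.0% a TATA box, 34.5% a CCAAT box, 6.87% the AP-1 motif and 10.1% the antioxidant response core. None of the 5 motifs was found in the Duox1 window, and none but the GC box in the windows of Duoxa1 and Nox4. Each gene was searched at 1 start only. The RefSeq spans of Duox1 and Nox4 given above begin upstream of their windows, and those upstream bases were not searched. G and C made up 47.6% of the Duox1 window, 65.6% of that of Duoxa1 and 67.2% of that of Nox4.

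Across the 8 groups, Duox1 and Duoxa1 were highest in DPP4_pos cells of the inguinal depot and not in FIP, although the choice of genes refers to FIP. Duox1 averaged 1353 ± 171 normalised counts (SD, n = 3) in F_DPP4_pos and 1328 ± 171 in M_DPP4_pos, then 764 ± 75.2 in F_FIP. The ranges of the DPP4_pos groups overlapped each other but not that of F_FIP. Next came F_DPP4_neg at 314 ± 193 and M_FIP at 308 ± 46.7, which overlapped. F_APC (55.9 ± 13.3), M_DPP4_neg (25.7 ± 4.82) and M_APC (15.7 ± 2.65) followed without overlap. Duoxa1 ran in nearly the same order, from 464 ± 34.9 in F_DPP4_pos, 444 ± 108 in M_DPP4_pos and 367 ± 47.1 in F_FIP, with M_DPP4_pos and F_FIP overlapping, to 2.62 ± 0.68 in M_APC. In these bulk samples, fewer cells that carry a transcript and less of it per cell cannot be told apart.

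**Figure D1:**
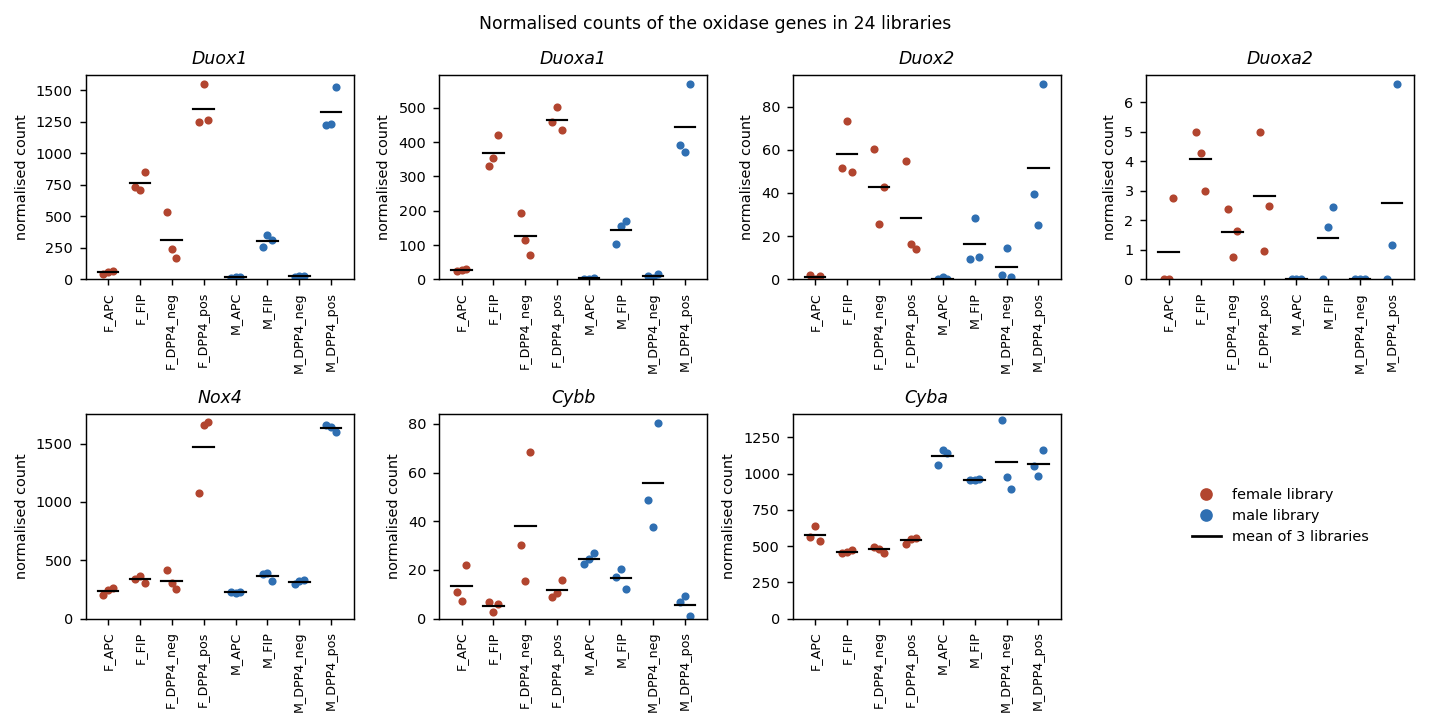
Normalised counts (linear y axes, 1 panel per gene) in every library of the 8 groups, females in red and males in blue, with a line at the mean of 3 libraries. Duox1, Duoxa1 and Nox4 peak in the DPP4_pos groups, and all 12 male Cyba values, from 893 up, lie above the highest female value of 641.

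Set against transcript length, Cyba was the most abundant of the 7 genes in every group. Its mean lay between 444 normalised counts per kb of exon in F_FIP and 1081 in M_APC. In the DPP4_pos groups Duox1 reached 257 (females) and 252 (males) per kb, Nox4 174 and 193, and Duoxa1 117 and 112. Duox2 and Cybb stayed low, with group means of at most 8.60 and 9.56 per kb. Duoxa2 had 43 reads in all 24 libraries together, was at 0 in 10 of them and never exceeded 6.61 normalised counts. All 3 M_APC and all 3 M_DPP4_neg libraries had 0 Duoxa2 reads, whereas F_FIP had 14 reads over its 3 libraries. Duoxa2 and Duoxa1 share 682 exon bases on opposite strands in the GENCODE annotation, and with no stated strand setting their reads there cannot be told apart.

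FIP and APC are the gonadal subpopulations, and the higher levels in FIP chose these genes, so the following values describe that choice. Duox1 was 733, 710 and 850 in the 3 F_FIP libraries against 42.6, 55.9 and 69.1 in F_APC. In males it was 260, 353 and 310 in M_FIP against 12.9, 16.2 and 18.1 in M_APC. The FIP and APC ranges were far apart in both sexes, with ratios of means of 13.7 in females and 19.5 in males. Duoxa1 was 329, 353 and 420 in F_FIP against 25.7, 27.4 and 30.4 in F_APC, and 104, 154 and 170 in M_FIP against 2.15, 2.32 and 3.39 in M_APC. Only 7 Duoxa1 reads stood behind the M_APC values, so the male ratio of 55.2 has a 95% binomial interval of 26.6 to 138, which covers counting error only.

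Duox2, the other dual oxidase, was also higher in FIP, at 51.5, 73.3 and 49.8 in F_FIP and 9.45, 28.5 and 10.6 in M_FIP. APC held 3 Duox2 reads in females and 1 in males, which gives ratios of 50.3 (95% binomial interval 16.9 to 246) and 43.2 (7.44 to 1737). Nox4 differed far less, with ratios of means of 1.41 in females and 1.61 in males. The subunit gene Cyba lay the other way, at 0.80 and 0.85 of its APC level. Cybb was at 0.38 of its APC level in females and 0.67 in males. Beside Cybb, 12 of 13 macrophage marker genes were lower in F_FIP than in F_APC and 2 of 13 lower in M_FIP than in M_APC, against 18.1% and 18.0% of all genes tested that were lower. In F_FIP all 7 adipocyte, 7 of 8 mesothelial and 6 of 7 mural cell markers were also lower, and 0 higher. Of 7 endothelial markers 5 were lower and 1 higher. The part of any of these cells in the Cybb values was not tested.

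FIP was then set beside the inguinal DPP4_pos cells, again without a test. Duox1 in FIP was at 0.56 of its DPP4_pos level in females and 0.23 in males, and Duoxa1 at 0.79 and 0.32. Nox4 in FIP was at 0.23 of the DPP4_pos level in females and 0.22 in males, and no FIP library reached the lowest DPP4_pos value of 1078. For Duox2 the FIP and DPP4_pos ranges overlapped in both sexes. The ratio of means was 2.04 in females, or 3.8 without replicate 1 of F_DPP4_pos. In males it was 0.31, or 0.50 without replicate 3 of M_DPP4_pos and 0.19 without replicate 2 of M_FIP.

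The inguinal comparison of DPP4_pos with DPP4_neg cells uses no FIP library and was tested with limma on log2(value + 1), with Benjamini-Hochberg adjustment over the 14517 genes and a threshold of 0.05. In both sexes Duox1, Duoxa1 and Nox4 were higher in DPP4_pos cells, Cybb was lower, and Cyba did not pass the test. Of the 6 tested genes, 3 rose and 1 fell in females, where 49.7% of all genes were called (22.6% higher, 27.1% lower). In males 4 rose and 1 fell, where 50.5% of all genes were called (25.2% higher, 25.3% lower). With about every other gene called, these counts alone do not set the oxidase genes apart, and the sizes carry the description.

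Duox1 was 1247, 1550 and 1262 in F_DPP4_pos and 533, 242 and 167 in F_DPP4_neg. The DPP4_neg libraries spread widely, but all lay below the DPP4_pos libraries, and the log2 fold change was 2.27 ± 0.25 (SE, limma adjusted p = 4.99e-08, n = 3 and 3). In males Duox1 was 1226, 1232 and 1525 in DPP4_pos against 20.3, 29.6 and 27.1 in DPP4_neg. That is a log2 fold change of 5.65 ± 0.25, or 50.1-fold (limma adjusted p = 1.42e-15, n = 3 and 3). The DPP4_pos libraries of the sexes overlapped, whereas every M_DPP4_neg library lay below every F_DPP4_neg library.

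Duoxa1, the maturation factor of DUOX1, followed the oxidase. It was 457, 502 and 434 in F_DPP4_pos against 195, 116 and 70.2 in F_DPP4_neg, a log2 fold change of 1.98 ± 0.29 (limma adjusted p = 3.59e-06, n = 3 and 3). In males it was 391, 371 and 568 against 10.1, 5.11 and 14.8, a log2 fold change of 5.41 ± 0.29 (limma adjusted p = 4.72e-14). Groups did not overlap in either sex. A pseudocount of 10 in place of 1 lowered the male value to 4.51 and left it called. Per library the ratio of Duoxa1 to Duox1 counts averaged 0.34 ± 0.02 in F_DPP4_pos and 0.33 ± 0.04 in M_DPP4_pos, 0.48 ± 0.03 in F_FIP and 0.46 ± 0.08 in M_FIP (SD, n = 3). It was 0.42 ± 0.06 in F_DPP4_neg, 0.41 ± 0.20 in M_DPP4_neg and 0.51 ± 0.08 in F_APC. The lowest mean, 0.17 ± 0.02 in M_APC, rests on the 7 Duoxa1 reads.

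Duox2 behaved differently in the sexes. In males it was 39.6, 25.4 and 90.3 in DPP4_pos against 2.03, 14.3 and 1.23 in DPP4_neg, groups that did not overlap (log2 fold change 3.29 ± 0.63, limma adjusted p = 9.13e-05, n = 3 and 3). With a pseudocount of 10 that value was 1.91, and without replicate 2 of M_DPP4_neg it was 4.15. In females it was 55.0, 16.6 and 14.0 in DPP4_pos against 60.4, 25.5 and 42.9 in DPP4_neg. The female groups overlapped, and the log2 fold change of -0.76 had a 95% interval from -2.05 to 0.53. All 8 epithelial markers were lower in F_DPP4_pos than in F_DPP4_neg, against 27.1% of all genes. In the 3 F_DPP4_neg libraries, in the order of the Duox2 values above, the epithelial sum was 4048, 9737 and 5696. In males 2 of 8 epithelial markers were higher in DPP4_pos and 0 lower, against 25.2% and 25.3% of all genes. The part of epithelial cells in the female values was not tested.

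Nox4 was 1078, 1661 and 1680 in F_DPP4_pos against 418, 302 and 255 in F_DPP4_neg (log2 fold change 2.18 ± 0.15, limma adjusted p = 8.51e-12, n = 3 and 3). In males it was 1655, 1640 and 1600 against 298, 321 and 335 (2.36 ± 0.15, limma adjusted p = 7.51e-13). Every DPP4_pos library exceeded every DPP4_neg library in both sexes. Cyba, whose product NOX4 needs, was 516, 548 and 558 against 497, 481 and 453 in females (0.18 ± 0.10, limma adjusted p = 0.152). In males it was 1055, 985 and 1164 against 1367, 980 and 893 (0.01 ± 0.10, limma adjusted p = 0.973), and its sign changed with the scaling and with the library left out. The 95% interval of the Cyba change was -0.03 to 0.39 in females and -0.21 to 0.22 in males.

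Cybb was 9.0, 10.7 and 15.7 in F_DPP4_pos against 30.2, 15.5 and 68.5 in F_DPP4_neg, ranges that overlapped narrowly. Its log2 fold change was -1.40 ± 0.51 (limma adjusted p = 0.0255, n = 3 and 3). The adjusted p was 0.199 without replicate 3 of F_DPP4_neg, 0.0842 and 0.0624 without replicate 1 or 2 of F_DPP4_pos, and 0.129 with quantile normalization. In males Cybb was 6.78, 9.23 and 1.10 against 48.7, 37.8 and 80.1, with no overlap (-3.29 ± 0.51, limma adjusted p = 6.28e-06), and leaving out replicate 3 of M_DPP4_pos gave -2.59 and a pseudocount of 10 gave -2.05. Beside these values, all 13 macrophage markers were lower in DPP4_pos in females and 6 of 13 in males, against 27.1% and 25.3% of all genes. The macrophage sum was 775 to 1646 in F_DPP4_neg against 331 to 404 in F_DPP4_pos, and 544 to 885 in M_DPP4_neg against 294 to 371 in M_DPP4_pos. All 3 tested neutrophil markers were lower in DPP4_pos in both sexes, and no macrophage marker was at 0 in any group. The part of myeloid cells in the Cybb difference was not tested.

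**Figure D2:**
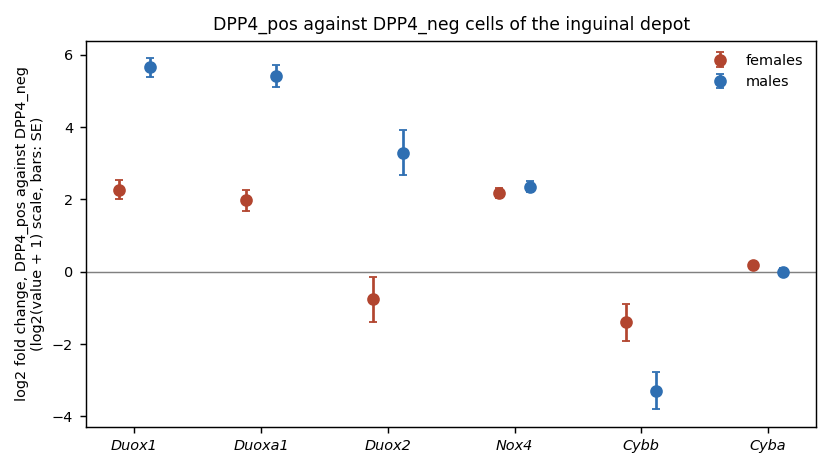
Log2 fold change of DPP4_pos against DPP4_neg on the log2(value + 1) scale for the 6 tested genes, females in red and males in blue, with bars of 1 SE (n = 3 and 3). The sexes coincide for Nox4 (2.18 and 2.36) and lie apart for Duox1 (2.27 and 5.65), Duoxa1 (1.98 and 5.41) and Duox2 (-0.76 and 3.29).

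The difference of this comparison between the sexes was tested as an interaction, in which 3 of the 6 genes were called, all 3 with the larger value in males. Of all genes 29.0% were called, 16.4% with the larger value in males and 12.6% in females. The male contrast exceeded the female one by 3.38 ± 0.36 for Duox1 (log2 scale, SE, limma adjusted p = 1.04e-07), by 3.43 ± 0.41 for Duoxa1 (6.79e-07) and by 4.05 ± 0.89 for Duox2 (0.00109). For Nox4 the difference was 0.18 ± 0.21 (limma adjusted p = 0.567), with a 95% interval from -0.25 to 0.61. Cybb (-1.89 ± 0.72, limma adjusted p = 0.0504) and Cyba (-0.18 ± 0.15, 0.403) did not pass. Under quantile normalization Cybb did pass (-2.05, limma adjusted p = 0.0262). It also passed when replicate 3 of F_DPP4_neg, replicate 2 of M_DPP4_neg, or replicate 1 or 2 of M_DPP4_pos was left out (adjusted p from 0.012 to 0.0401). Without replicate 3 of M_DPP4_pos, which held 1 Cybb read, the Cybb difference shrank to -1.20 and did not pass. A pseudocount of 10 gave -1.05, which did not pass either. Dpp4 itself averaged 2496 ± 1565 (SD, n = 3) in F_DPP4_neg and 245 ± 11.6 in M_DPP4_neg, so the female group named as negative carried more of the transcript. All 8 interstitial progenitor markers, Dpp4 among them, were higher in DPP4_pos cells in each sex, and for 7 of the 8 the interaction was called with the larger value in males. For 6 of 8 epithelial markers the interaction was also called with the larger value in males. Their sum was 4048 to 9737 in F_DPP4_neg and 9.86 to 27.6 in M_DPP4_neg. Within F_DPP4_neg that sum was lowest in replicate 1, where Duox1, Duoxa1 and Duox2 were highest. Whether either marker set has a part in the interaction was not tested.

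Males and females were compared within each subpopulation. The FIP libraries tested by sex are those the choice of genes refers to, so the choice enters those tests. Cyba was higher in males in all 4 subpopulations, and Duox1 and Duoxa1 were lower in males in 3 of the 4, with values near 0 in DPP4_pos cells that did not pass the test. Among the 6 tested genes 1 was higher and 2 lower in male APC, where 44.4% of all genes were called (22.4% higher, 22.1% lower), and 2 higher and 3 lower in male FIP, where 37.2% were called (18.2% higher, 19.0% lower). In male DPP4_neg cells 1 was higher and 3 lower, where 57.4% of all genes were called (27.1% higher, 30.3% lower), and in male DPP4_pos cells 1 higher and 0 lower, where 52.6% were called (27.1% higher, 25.5% lower). Without replicate 2 of F_FIP the count in FIP was 3 instead of 5.

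Cyba was 564, 641 and 535 in F_APC against 1059, 1166 and 1144 in M_APC, and 454, 459 and 472 in F_FIP against 955, 960 and 961 in M_FIP. The M_DPP4_neg and M_DPP4_pos values given above likewise exceeded every female value. The male-to-female log2 fold change was 0.95 in APC, 1.05 in FIP, 1.15 in DPP4_neg and 0.98 in DPP4_pos (each ± 0.10 SE), with limma adjusted p values of 3.78e-08, 1.09e-08, 8.62e-10 and 1.88e-08. These are 1.94-fold to 2.22-fold differences, and all 4 calls held under every alternative tried. Nox4, the partner of Cyba, differed between the sexes by at most 0.18 on the log2 scale in any subpopulation and passed the test in none, with 95% intervals that reached from -0.37 at the lowest to 0.48 at the highest.

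Duox1 was lower in males by a log2 fold change of -1.75 ± 0.25 in APC (limma adjusted p = 3.63e-06), -1.32 ± 0.25 in FIP (0.000199) and -3.41 ± 0.25 in DPP4_neg cells (3.33e-11). In DPP4_pos cells the value was -0.03 with a 95% interval from -0.55 to 0.50. Duoxa1 gave -3.01 ± 0.29 in APC (limma adjusted p = 6.88e-09), -1.38 ± 0.29 in FIP (0.00054) and -3.52 ± 0.29 in DPP4_neg cells (2.38e-10), and -0.09 in DPP4_pos cells (95% interval -0.69 to 0.51). In APC, FIP and DPP4_neg cells every male library lay below every female library for both genes. The APC value of Duoxa1 was -1.58 with a pseudocount of 10. Beside these values, 6 of 8 interstitial progenitor markers were lower in male APC and 0 higher (summed levels 2589 to 2801 against 8191 to 10266). Of all genes 22.1% were lower there and 22.4% higher. In male FIP 4 were lower and 1 higher (41522 to 45923 against 66453 to 72972), against 19.0% and 18.2% of all genes. In male DPP4_pos cells 1 was lower and 0 higher, against 25.5% and 27.1% of all genes. The part of such cells was not tested.

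Duox2 was lower in males in DPP4_neg cells (-3.14 ± 0.63, limma adjusted p = 0.00014) and in FIP (-1.93 ± 0.63, 0.0169). The FIP call was lost without replicate 2 of F_FIP, or replicate 1 or 3 of M_FIP, where the adjusted p ranged up to 0.0762. Beside the Duox1, Duoxa1 and Duox2 values in DPP4_neg cells, all 8 epithelial markers were lower in males (30.3% of all genes were), as were all 8 interstitial progenitor markers, among them Dpp4 and Pi16. Cybb was higher in male than in female FIP, at 17.0, 20.5 and 12.2 against 6.65, 2.56 and 5.97 (1.58 ± 0.51, limma adjusted p = 0.0163). Without replicate 2 of F_FIP the adjusted p was 0.0975, and without replicate 2 of M_FIP 0.0652. Cybb by sex gave 0.97 in APC, 0.71 in DPP4_neg and -1.18 in DPP4_pos cells (limma adjusted p = 0.128, 0.240 and 0.0542). The DPP4_pos value passed with a pseudocount of 0.5 (0.0492), and without replicate 1 or 2 of M_DPP4_pos (0.0405 and 0.0160). It shrank to -0.49 without replicate 3 of M_DPP4_pos, which held 1 Cybb read, and to -0.50 with a pseudocount of 10. Neither passed. The APC value passed without replicate 3 of F_APC (0.0487), but was 0.63 and did not pass without replicate 2 of F_APC. Beside the FIP value, 11 of 13 macrophage markers were higher in male FIP (18.2% of all genes were), with sums of 439 to 619 against 184 to 247. Of the 7 adipocyte, 7 endothelial and 7 mural cell markers, 6, 5 and 4 were also higher there, and 0 lower. The part of these cells was not tested.

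**Figure D3:**
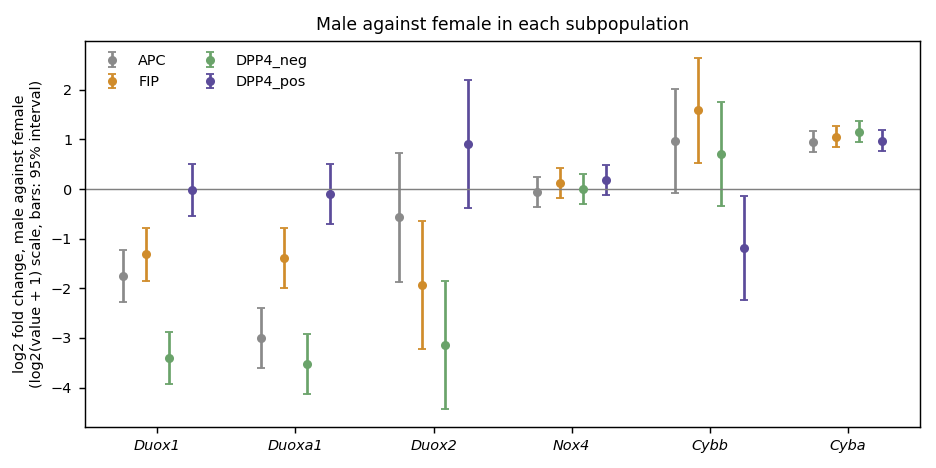
Male against female log2 fold change with its 95% interval (log2(value + 1) scale, n = 3 and 3) for the 6 tested genes in APC, FIP, DPP4_neg and DPP4_pos cells. Cyba lies near 1 in all 4, Nox4 near 0, and Duox1 and Duoxa1 fall below 0 except in DPP4_pos cells.

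APC and DPP4_neg cells, the subpopulations lower in Duox1 of each depot, were also compared. In females 5 of the 6 genes were lower and 1 higher in APC, where 59.0% of all genes were called (26.8% higher, 32.2% lower). Duox1 gave -2.32 ± 0.25 (limma adjusted p = 2.31e-08), Duoxa1 -2.03 ± 0.29 (1.79e-06) and Duox2 -4.43 ± 0.63 (1.3e-06), the last with 3 reads in F_APC against 161 in F_DPP4_neg. That Duox2 ratio was 36.7 in favour of F_DPP4_neg, with a 95% binomial interval of 12.3 to 180. The smaller female changes of Nox4 (-0.42), Cybb (-1.33) and Cyba (0.28) had limma adjusted p values of 0.0172, 0.0275 and 0.0231. Each of these 3 calls was lost when 1 of several libraries was left out, with adjusted p values of up to 0.188 for Nox4 without replicate 1 of F_DPP4_neg, 0.209 for Cybb without replicate 3 of F_DPP4_neg, and 0.131 for Cyba without replicate 2 of F_APC. Beside these values, all 8 epithelial markers, 7 of 8 interstitial progenitor markers, 9 of 13 macrophage markers and all 3 tested neutrophil markers were lower in F_APC. The epithelial sum was 52.3 to 205 in F_APC, against the 4048 to 9737 of F_DPP4_neg, and the macrophage sum 404 to 798 against 775 to 1646. The part of these cells was not tested.

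In males 4 of the 6 genes were lower in APC and 0 higher, where 66.1% of all genes were called (33.1% higher, 33.0% lower). Nox4 (-0.48 ± 0.15, limma adjusted p = 0.00597) kept its call under every alternative. Duox1 (-0.67 ± 0.25, limma adjusted p = 0.024), Duoxa1 (-1.52 ± 0.29, 7.01e-05) and Duox2 (-1.86 ± 0.63, 0.0115) did not pass edgeR's quasi-likelihood test on whole reads, with adjusted p values of 0.344, 0.0845 and 0.0626. Duox1 also lost its call with DESeq2 (adjusted p = 0.123), with a pseudocount of 10 (0.0836), without the mean-variance trend (0.0506), and without replicate 1 of M_APC or replicate 2 or 3 of M_DPP4_neg (up to 0.103). Duoxa1 was -0.64 with a pseudocount of 10 and stayed called. The size of the Duox2 change ran from -0.52 with a pseudocount of 10 (adjusted p = 0.211) to -3.89 with DESeq2 (0.0113), and without replicate 2 of M_DPP4_neg it was -1.01 (0.144). Cybb gave -1.07 and did not pass (limma adjusted p = 0.067), but passed with edgeR (0.0212), DESeq2 (0.0208), quantile normalization (0.0276) and a pseudocount of 10 (0.0127), and without replicate 2 of M_DPP4_neg (0.0491). Without replicate 3 of M_DPP4_neg it was -0.78 and did not pass. Beside these values, 4 of 8 interstitial progenitor markers were lower and 1 higher in M_APC, all 3 tested neutrophil markers were lower, and 2 of 13 macrophage markers were lower and 5 higher. These male groups held between 1 and 71 reads of each of the 3 genes.

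Over the 24 libraries the genes whose log2 values were most like Duox1 were Pi16 (Pearson's r 0.98), Rras2, Dpp4, Car8 and Ano3, all at 0.98 to 2 decimals among 9991 genes searched. Duoxa1 had 4 of these 5, Car8, Rras2, Pi16 and Dpp4, and in addition Efemp1, again at 0.98. Pi16 encodes a peptidase inhibitor and, with Dpp4, is a known marker of interstitial progenitors of adipose tissue. Nox4 had other nearest genes, Rarg (0.96), Prcp (0.95), Stxbp5 (0.95), Loxl4 (0.94) and Dmrt2 (0.94). Rarg encodes a retinoic acid receptor and Loxl4 a lysyl oxidase of the extracellular matrix. Cybb was most like Lyz2, the lysozyme gene of myeloid cells (0.93), followed by Hmgcs1, Epha4, Hhip and Cd82 at 0.83. Among the members, Duox1 correlated with Duoxa1 at 0.98, Duox2 at 0.85, Nox4 at 0.76, Cybb at -0.63 and Cyba at -0.41. These libraries share their group, depth and scaling, and the coefficients are descriptions across groups. They were computed with the FIP libraries behind the choice of genes and with inguinal groups named for DPP4. Both the choice and the sort therefore enter them.

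Duox1 also moved with Dpp4 inside the most variable group. Dpp4 was 4213, 2124 and 1150 in F_DPP4_neg replicates 1 to 3, where Duox1 was 533, 242 and 167, Duoxa1 195, 116 and 70.2 and Nox4 418, 302 and 255. All 4 genes thus fell in the same order of libraries. Duox1 also followed the library order of Dpp4 in F_APC, F_DPP4_pos, M_APC and M_DPP4_pos, but not in F_FIP, M_FIP or M_DPP4_neg. In M_FIP replicates 1 to 3, Dpp4 was 5096, 4880 and 4483, where Duox1 was 260, 353 and 310. Duox1 counts per 1000 Dpp4 counts averaged 129 ± 15.6 (SD, n = 3) in F_DPP4_neg, 71.6 ± 2.90 in F_DPP4_pos and 90.6 ± 2.13 in F_FIP, while F_APC had 43.5 ± 3.59. In males the ratio was 105 ± 21.2 in DPP4_neg, 85.8 ± 7.86 in DPP4_pos, 64.1 ± 11.5 in FIP and 81.0 ± 1.72 in APC. Over all libraries it stayed between 40.1 and 145, while Dpp4 itself ran from 160 in M_APC to 20848 in F_DPP4_pos. The share of DPP4-bearing cells in each library was not measured.

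**Figure D4:**
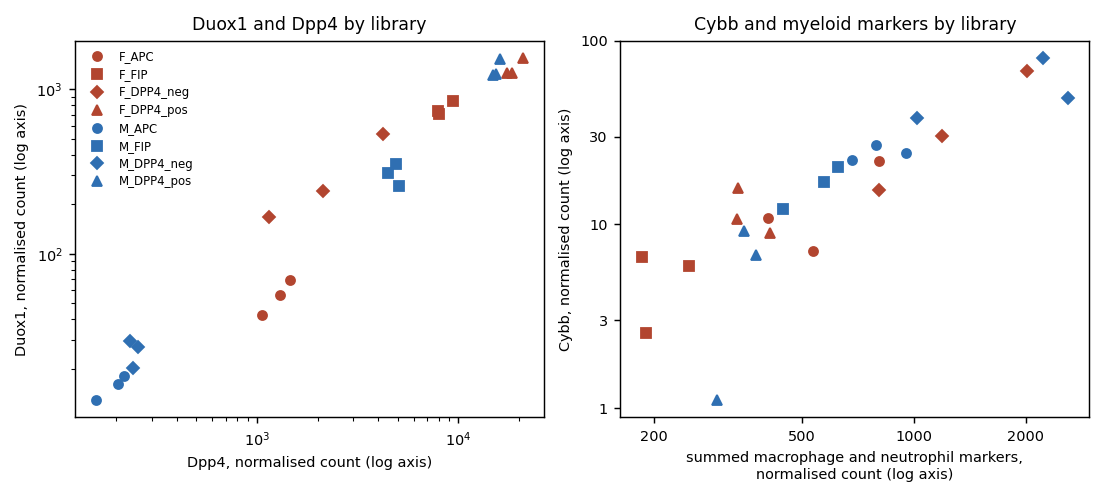
Left, Duox1 against Dpp4, and right, Cybb against summed macrophage and neutrophil markers, as normalised counts on log axes, 1 point per library, with colour for sex and shape for subpopulation. The 24 libraries rise together in both panels, and the F_DPP4_neg libraries are strung out along the Duox1 and Dpp4 trend from 167 to 533.

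The genes around the Duox1 start were read for the same inguinal comparison. Besides the members, 6 genes with a start within 200 kb were tested. Sord, which encodes sorbitol dehydrogenase, rose by 0.49 ± 0.11 in females and 0.53 ± 0.11 in males (log2 scale, SE, limma adjusted p = 0.000518 and 0.000207). Shf, the next gene beyond Duox1, gave 0.02 and -0.23 and passed in neither sex. Spg11 gave 0.25 in females, which did not pass, and 0.60 in males, which did. B2m and Trim69 passed in opposite directions, at 0.40 and 0.72 in females and -0.30 and -1.24 in males, and Slc28a2 fell by 1.04 in females and gave -0.31 in males, which did not pass. In the same comparison Duox1 and Duoxa1 changed by 1.98 to 5.65, so the tested neighbours outside the oxidase cluster changed less in both sexes. RefSeq places 754 bases of the Duox1 and Duoxa1 spans on top of each other on opposite strands, whereas the GENCODE annotation gives them no shared base.

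**Figure D5:**
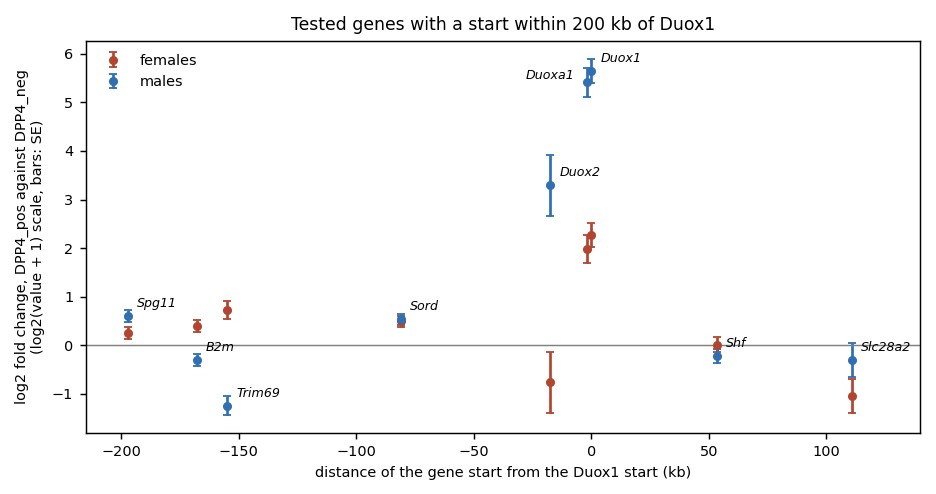
Log2 fold change of DPP4_pos against DPP4_neg (bars 1 SE, n = 3 and 3) by distance of the gene start from the Duox1 start in kb, females in red and males in blue. Duoxa1, Duox1 and, in males, Duox2 stand above neighbours that lie between -1.24 and 0.72.

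Of 11 partner genes of the NADPH oxidases present in the table, 8 were tested. In the inguinal comparison 2 were higher and 5 lower in DPP4_pos cells in each sex, where the shares of all genes were 22.6% and 27.1% for females, 25.2% and 25.3% for males. Their median log2 fold change was -0.88 in females and -1.48 in males, against -0.04 and 0.00 over all genes. Among the genes that fell were the cytosolic phagocyte subunit genes Ncf1 (-2.19 in females, -3.17 in males) and Ncf4 (-1.67 and -2.09), with the blood-cell GTPase gene Rac2 (-1.67 and -2.28). These fell with Cybb and with the macrophage and neutrophil markers given above. Cybc1, which encodes a chaperone of the phagocyte oxidase, fell by 0.19 in females and 0.88 in males. Noxo1, an organizer subunit gene, rose by 0.58 and 1.70, and the widely expressed Rac1 by 0.29 and 0.25. The listed gene Nox1 was at 0 in every library of both male inguinal groups, but not of the female ones. Nox3 was at 0 throughout F_DPP4_neg, F_DPP4_pos and M_DPP4_pos, and Noxa1 throughout both female inguinal groups. Poldip2, another listed partner gene, passed in neither sex. In FIP against APC, Rac1 was higher in both sexes (0.45 and 0.32) and Noxo1 in females (1.10), while in males Noxo1 gave 0.53 and did not pass. In that comparison 2 of the 8 partners were higher and 0 lower in females, where 39.4% of all genes were called (21.3% higher, 18.1% lower). In males 1 was higher and 2 lower, where 36.9% were called (18.9% higher, 18.0% lower).

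Enzymes that remove peroxide and superoxide (21 tested) showed no single direction. In DPP4_pos cells 7 were higher and 2 lower in females (22.6% and 27.1% of all genes), with a median of 0.13, and 5 higher and 6 lower in males (25.2% and 25.3% of all genes), with a median of 0.05. Prdx5, a peroxiredoxin gene, rose in both sexes (1.04 and 0.91). The secreted enzymes' genes Gpx3 (1.4) and Sod3 (1.24) and the peroxiredoxin Prdx6 (1.12) led in females. In males Cat, the catalase gene, fell by 0.91, Gpx7 by 0.64 and Glrx by 0.60. In FIP against APC, 3 were higher and 8 lower in females (21.3% and 18.1% of all genes) and 3 higher and 5 lower in males (18.9% and 18.0%). Prdx5 was again higher in FIP (0.83 in females and 0.65 in males), and Gpx3 (-0.95 and -1.44) and the mitochondrial superoxide dismutase gene Sod2 (-0.64 and -0.58) were lower. The remaining genes named by size were Prdx4, lower in female FIP (-0.53), and Txnrd1, lower in male FIP (-0.41).

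The 12 listed targets of NRF2, a transcription factor of the oxidant response, split in the inguinal comparison, with 5 higher and 2 lower in females (22.6% and 27.1% of all genes) and 7 higher and 3 lower in males (25.2% and 25.3%). Osgin1 (-1.36 in females and -1.96 in males) and Gsta4 (-1.07 and -1.21) fell, and Me1 (0.89 and 1.04) and G6pdx (0.86 and 0.97), which encode NADPH-producing enzymes, rose. In FIP none of the 12 was higher than in APC, and 4 were lower in females (18.1% of all genes) and 7 in males (18.0%), with medians of -0.20 and -0.40 against -0.00 and -0.03 over all genes. Among those lower were Gsta4 (-1.73 and -1.87), Osgin1 (-0.65 and -1.49), Hmox1 (-0.52 and -1.07) and, in males, G6pdx (-0.43). Heme peroxidases use hydrogen peroxide, and 2 of the 5 listed were tested. Pxdn, whose product crosslinks basement membrane collagen, was higher in DPP4_pos cells (1.21 in females and 0.71 in males). Mpo, the myeloid peroxidase gene, was lower (-3.89 and -5.10), as were the neutrophil markers. Neither passed in FIP against APC.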

How the data were processed

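The authors deposited a normalized signal per gene and library. The submitters' processing notes name GRCm38 (mm10), DESeq2 1.6.3, featureCounts 1.4.6, HISAT2 2.0.1 and Trim Galore 0.4.1. Their settings, annotation and strand are not given in the sources used here. In each library 100% of the deposited values were whole multiples of a step, within 0.01 read, which gave back whole reads. Rows with no symbol held up to 0.0765% of the reads. A pseudocount of 1 was added before taking log2, which understates changes of low genes, and limma 3.58.1 (R 4.3.3) was fitted over all 24 libraries with a mean for each group and a trend of variance on mean. Genes reaching 10 in 3 or more libraries were tested, and a Benjamini-Hochberg adjusted p under 0.05 called a gene. Because each gene has 1 spread over all groups, its SE is the same in every comparison of 2 groups. The fit was tested on simulated data. The members, comparisons and lists (4 pathway lists, 11 marker lists) were chosen with earlier results of these data known.

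Named besides the members were the 5 genes most like Duox1, Duoxa1, Nox4 and Cybb each, among genes with a group mean of at least 100, genes with a start within 200 kb of Duox1, and up to 4 called genes of each pathway list by size. A gene that this rule names is not reported here. Further pathway genes named, such as Cybc1, Rac1 and Poldip2, and the marker genes were chosen after their values were seen. Lengths per kb use GENCODE exons. Same-numbered libraries were checked for pairing over 2000 genes: their deviations correlated with r from -0.11 to 0.23 (median -0.00), and only in the female DPP4_pos and DPP4_neg groups did all 3 pairs exceed 0.1 (0.19, 0.23 and 0.12). Binomial 95% intervals reflect counting alone, as reads lacking molecular identifiers need not be separate molecules. Alternatives were other pseudocounts, filters and scalings, edgeR 4.0.16 and DESeq2 1.42.0 on whole reads, a replicate block and each library left out.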

Additional observations from a re-analysis of the deposited data

Results flagged for a closer look

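The comparison of DPP4_pos with DPP4_neg cells gave a different size in males and females for 3 genes, by a test of the difference itself (limma interaction term, Benjamini-Hochberg adjusted over all genes tested, n = 3 in each of 4 groups). The male log2 fold change exceeded the female one by 3.38 ± 0.36 (SE) for Duox1, by 3.43 ± 0.41 for Duoxa1 and by 4.05 ± 0.89 for Duox2, with adjusted p values of 1.04e-07, 6.79e-07 and 0.00109. The 3 genes are neighbours and their values share the same libraries. Most interstitial progenitor and epithelial markers had an interaction called in the same direction, as given above, and their part was not tested. All 3 calls held under every alternative tried, with Duox2 ranging from 2.47 with a pseudocount of 10 to 4.90 without replicate 2 of M_DPP4_neg.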

How the results depend on the processing

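Of 54 tests of a member, 35 were called, and 26 of these kept call and direction under each of the 11 alternatives (10 for Cybb, which the filter at 50 leaves out) and with each library of the compared groups left out. Another 9 lost the call in at least 1 alternative, and 0 reversed. Of the 19 tests not called, 6 were called in at least 1 alternative. The number of members called moved to 2 with a pseudocount of 0.5 in the male against female comparison of DPP4_pos cells, and to 2 with edgeR in male APC against DPP4_neg. With libraries left out in turn it ranged from 3 to 5 in FIP by sex and from 1 to 2 in DPP4_pos by sex. Pseudocount 10 gave log2 differences for FIP against APC of 3.31 for Duoxa1 in females, and 3.62 for Duox1 and 3.57 for Duoxa1 in males. Quantile normalization gave -1.88 for Duox1 in male FIP against DPP4_pos.

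Signs changed in tests that were not called. Cyba in male DPP4_pos against DPP4_neg gave -0.11 with quantile normalization, -0.037 with edgeR and -0.019 with DESeq2, and -0.12 to 0.19 with libraries left out. Quantile normalization gave 0.052 for Nox4 by sex in DPP4_neg, -0.052 for the Nox4 interaction, and 0.11 for Cyba in male FIP against DPP4_pos, which was not tested. With libraries left out, Nox4 by sex ranged from -0.18 to 0.010 in APC, -0.16 to 0.19 in DPP4_neg and -0.034 to 0.29 in DPP4_pos. In DPP4_pos by sex Duox1 ranged from -0.13 to 0.074 and Duoxa1 from -0.28 to 0.024. Cyba ranged from -0.045 to 0.26 in male APC against DPP4_neg and from -0.30 to 0.0071 in the interaction, and Nox4 from -0.033 to 0.34 in the interaction. The cause was not tested.

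A replicate block over all 24 libraries changed no call of a member. The block ties same-numbered libraries of all groups, although male and female libraries cannot share an animal. Pairing by animal was therefore not tested. Every group holds replicates 1 to 3, so the block cannot move a difference, only its error: Duox1 in female DPP4_pos against DPP4_neg stayed at 2.27, with an adjusted p of 2e-07. A block with only the groups of a comparison was chosen after seeing the data. Against the same fit without the block, it gained the calls of Cybb by sex in DPP4_neg (adjusted p 0.042 against 0.24), Cybb in female APC against DPP4_neg (0.00352 against 0.0508) and Duox2 in male APC against DPP4_neg (0.0236 against 0.0634), and lost Duox1 in the last (0.0584 against 0.0456). Fitting only the compared groups, with or without the block, called Cybb in male APC against DPP4_neg (0.0115 without) and lost Nox4 in female APC against DPP4_neg (0.0605 without). No count over all genes moved by more than 1.5 times. Depth limits Duoxa2, with 43 reads in all, and the APC values of Duox2 and Duoxa1.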
